A study of Mus musculus with 10 samples.

Results

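The Ly6 gene cluster on mouse chromosome 15 was examined as open chromatin in thymic invariant natural killer T (iNKT) cells. Its members were the regions of the deposited table that overlapped the gene body of Ly6a, Ly6c1, Ly6c2, Ly6e, Ly6d or Ly6k, or that lay within 50 kb of the transcription start of one of them. This gave 53 of 94823 regions (0.0559%), with 29 in reach of Ly6e, 14 of Ly6a, 13 of Ly6c2, 9 of Ly6d, 6 of Ly6c1 and 4 of Ly6k, some in reach of more than 1 gene. The cluster was chosen by measured values, because a region upstream of Ly6c1 had no insertions in SKG iNKT1 cells, so every value for SKG against BALB/c iNKT1 is given as a description without a test.

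The assay was ATAC-seq: a transposase cuts and tags open DNA, and each cut was counted as an insertion. From the thymus of young adult mice there were 2 libraries of iNKT1 cells and 3 of iNKT2 cells from each of 2 strains, BALB/c and SKG, or 10 libraries in 4 groups. SKG mice carry, on the BALB/c background, a hypomorphic Zap70 allele that weakens signalling downstream of the T cell receptor, and BALB/c mice were the wild type. By the study's methods iNKT1 cells were sorted as CD27+ CD122+ and iNKT2 cells as CD27+ CD122-. Whether libraries of a group came from separate animals is not stated, so p-values measure only the spread between these libraries, which may be technical.

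Ly6 genes encode small proteins with a compact, disulfide-rich fold, most of them held on the cell surface by a lipid (GPI) anchor. Ly6a encodes the stem cell and T cell activation antigen Sca-1, Ly6c1 and Ly6c2 encode the Ly6C antigens of monocytes and memory T cells, and Ly6e, also known as thymic shared antigen, marks immature thymocytes. Ly6d is a marker of early B lineage cells and Ly6k is known from germ cells. Several of these genes, among them Ly6a, Ly6c1, Ly6c2 and Ly6e, are induced by interferons in many tissues, and the cluster grew by duplication, so that its genes and the DNA between them resemble each other.

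The sequences of 3 regions are shown first because the differences between groups were most extreme there. They were read from the GRCm38.p6 assembly (RefSeq), which is the mm10 build of the table, on the plus strand over the central 300 bases of each region. Capitals mark matches to 1 of the motif strings searched below. The first region had insertions in both BALB/c iNKT1 libraries and none in SKG iNKT1, the second had none in BALB/c iNKT1, and the third had the highest fitted genotype change of the cluster in iNKT2 cells.

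Region 17.1 kb upstream of the Ly6c1 start, intergenic, chr15:75065935-75066234: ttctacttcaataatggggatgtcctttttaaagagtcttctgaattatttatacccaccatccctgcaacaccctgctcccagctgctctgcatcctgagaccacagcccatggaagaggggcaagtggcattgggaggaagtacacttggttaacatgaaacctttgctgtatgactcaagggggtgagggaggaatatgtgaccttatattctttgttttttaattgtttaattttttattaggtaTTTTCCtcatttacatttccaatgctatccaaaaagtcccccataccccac

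Region 28.8 kb upstream of the Ly6e start, intergenic, chr15:74925927-74926226: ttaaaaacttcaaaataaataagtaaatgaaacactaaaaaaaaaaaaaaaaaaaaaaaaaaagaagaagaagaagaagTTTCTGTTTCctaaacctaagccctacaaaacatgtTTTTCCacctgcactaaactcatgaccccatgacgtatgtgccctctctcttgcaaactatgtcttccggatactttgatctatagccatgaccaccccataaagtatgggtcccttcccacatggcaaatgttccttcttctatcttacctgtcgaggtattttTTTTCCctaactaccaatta

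Region 19.5 kb upstream of the Ly6e start, in an exon of the non-coding gene Gm39556, chr15:74935236-74935535: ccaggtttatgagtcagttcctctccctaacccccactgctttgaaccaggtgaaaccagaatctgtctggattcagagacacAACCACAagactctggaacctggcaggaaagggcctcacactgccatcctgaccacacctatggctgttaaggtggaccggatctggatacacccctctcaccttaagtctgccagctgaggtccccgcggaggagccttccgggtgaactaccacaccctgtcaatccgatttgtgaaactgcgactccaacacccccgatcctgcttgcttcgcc

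The capitals in the first are 1 NFAT string on the minus strand, those in the second are 1 interferon-stimulated response element (ISRE) string and 2 NFAT strings on the minus strand, and those in the third are 1 Runx string on the minus strand. Of the 6 genes, Ly6c1 and Ly6c2 had a promoter sequence in the RefSeq table used. The 250 bases before the RefSeq start are printed on the minus strand, which is the strand of both genes, because a region held the start of Ly6c2 and none held that of Ly6c1.

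Ly6c1, chr15:75048838-75049087: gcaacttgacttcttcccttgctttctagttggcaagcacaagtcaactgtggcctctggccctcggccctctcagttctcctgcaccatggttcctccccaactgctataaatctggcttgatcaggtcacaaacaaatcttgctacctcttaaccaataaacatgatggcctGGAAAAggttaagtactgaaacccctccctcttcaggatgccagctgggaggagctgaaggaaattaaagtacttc

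Ly6c2, chr15:75111972-75112221: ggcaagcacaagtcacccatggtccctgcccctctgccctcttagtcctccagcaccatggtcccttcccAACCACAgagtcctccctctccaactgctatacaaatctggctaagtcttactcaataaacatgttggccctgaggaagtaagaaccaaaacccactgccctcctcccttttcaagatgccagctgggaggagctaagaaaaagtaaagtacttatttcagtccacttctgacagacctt

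Aligned end to end, these 2 stretches shared 171 bases, with 39 mismatches and 80 gap positions. The capitals are an NFAT string on the coding strand of Ly6c1 and a Runx string on the opposite strand of Ly6c2.

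Insertions within all regions totalled 14988590 to 36342635 per library. As a check on the sorted subsets, the summed start-region level of 6 iNKT1 marker genes (of 7 listed) was 340 to 349 CPM per kb in BALB/c iNKT1 and 388 to 390 in SKG iNKT1, against 81.9 to 102 in BALB/c iNKT2 and 84.8 to 129 in SKG iNKT2. The list holds Il2rb, which encodes the sort marker CD122. The 6 iNKT2 markers summed to 108 to 124 in the iNKT1 libraries and 114 to 189 in the iNKT2 libraries, and edgeR, DESeq2 and voom called 0 of them in the 3 tested comparisons, with 3 higher in each at an unadjusted edgeR p under 0.05 and 1 lower in SKG iNKT2 against SKG iNKT1. Start regions of 3 iNKT17 markers (of 4 listed) summed to at most 1.65 in iNKT1 libraries, to 22 to 32.9 in BALB/c iNKT2 and to 17.8 to 23.6 in SKG iNKT2. Of these, the Il17a start was called lower in SKG than in BALB/c iNKT2 (means of 13.6 and 2.89 CPM per kb), while that of Ccr6 averaged 2.74 and 7.97 in the same order and was not called. The part of such cells in the subset and genotype differences below was not tested. No region held the start of any of the 4 markers each listed for double-positive thymocytes, B cells or epithelial cells, 1 of 4 myeloid markers, Itgam, had a start region, and 3 of 4 T cell markers had one, at 116 to 183.

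Here CPM is the number of insertions per 1000000, scaled by the library total and its TMM factor. Regions were called by edgeR's quasi-likelihood test at an adjusted p (Benjamini-Hochberg over the 94823 regions) below 0.01 together with at least a 4-fold change. Fewer cells with an open site and a site less open in each cell cannot be told apart in these bulk samples.

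Summed over the 53 regions, the cluster had 188, 193 and 207 CPM in the 3 BALB/c iNKT2 libraries and 388, 296 and 342 in the 3 SKG iNKT2 libraries. In iNKT1 cells the sum was 276 and 264 in BALB/c and 381 and 367 in SKG. Within each subset, every SKG library thus lay above every BALB/c library.

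Between SKG and BALB/c iNKT2, 18 of the 53 regions (34.0%) were called higher in SKG, beside 0.252% of all regions, and 0 were called lower, beside 4.73% of all regions. At the adjusted p alone, 26 were higher and 0 lower in edgeR. DESeq2 and the voom fit with limma also called 0 regions lower, while 3 were lower and 33 higher at an unadjusted edgeR p under 0.05. The shares of all regions past these looser cuts were not counted, so the looser counts cannot be set against the genome. One of the 18 is an all-or-none region, described apart, and without such regions 17 of 51 were called higher and 0 lower. The 18 made up 7.53% of the 239 regions called higher in SKG iNKT2 across the genome, while the 53 were 0.0559% of all regions tested. The median log2 change of the 53 was 0.82, beside 0.01 for all regions, and the changes ran from -2.22 to 5.88. All SKG iNKT2 libraries were above all BALB/c iNKT2 libraries at 31 members and below them at 3, beside 16.7% and 21.9% of all regions.

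**Figure D1:**
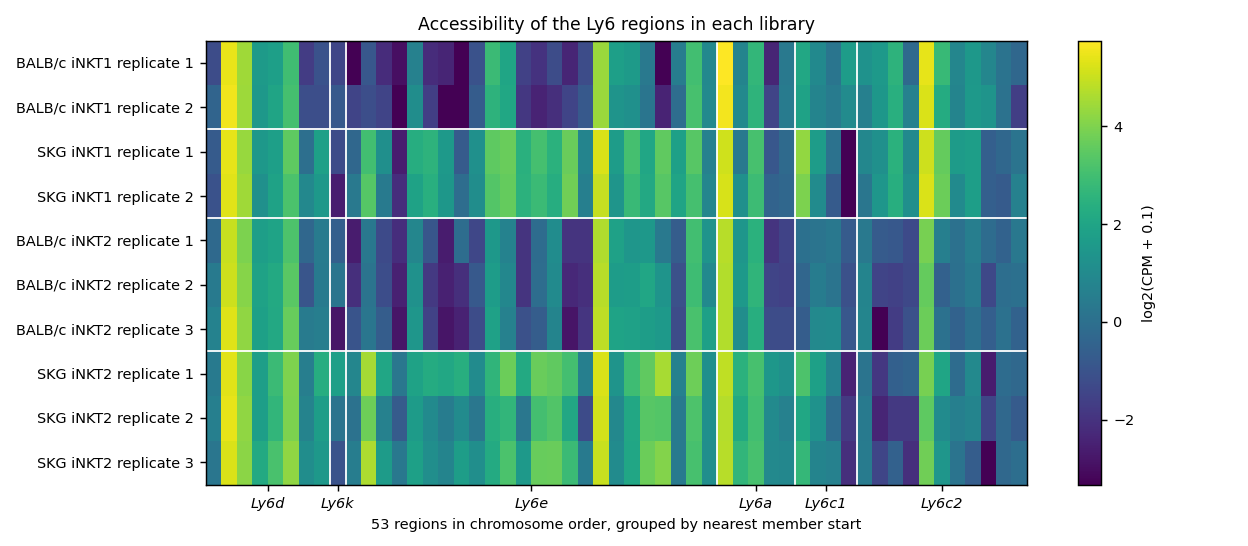
Heat map of log2(CPM + 0.1) at the 53 regions (columns, in chromosome order, labelled by the nearest gene start) in the 10 libraries (rows), with white lines between genes and groups. The block left of centre, before Ly6e, is dark in the 5 BALB/c libraries and lighter in the 5 SKG libraries, and several Ly6c2 columns are darker in the 6 iNKT2 libraries.

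The calls in SKG iNKT2 lay close together. Within 50 kb of 1 member, 17 of 29 regions were called higher. By number, the most outside the cluster was 8 of 40, on chromosome 7 around position 125601376, and the median over all 239 called regions was 1, the region itself. By share, some places with few regions were as high or higher, such as 3 of 5 on chromosome 10 and 3 of 3 on chromosome 18. In SKG against BALB/c iNKT1, the comparison that led to the locus, 12 members were past both thresholds upward and 1 downward, beside 0.281% and 0.732% of all regions, and nothing is read from these counts.

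**Figure D2:**
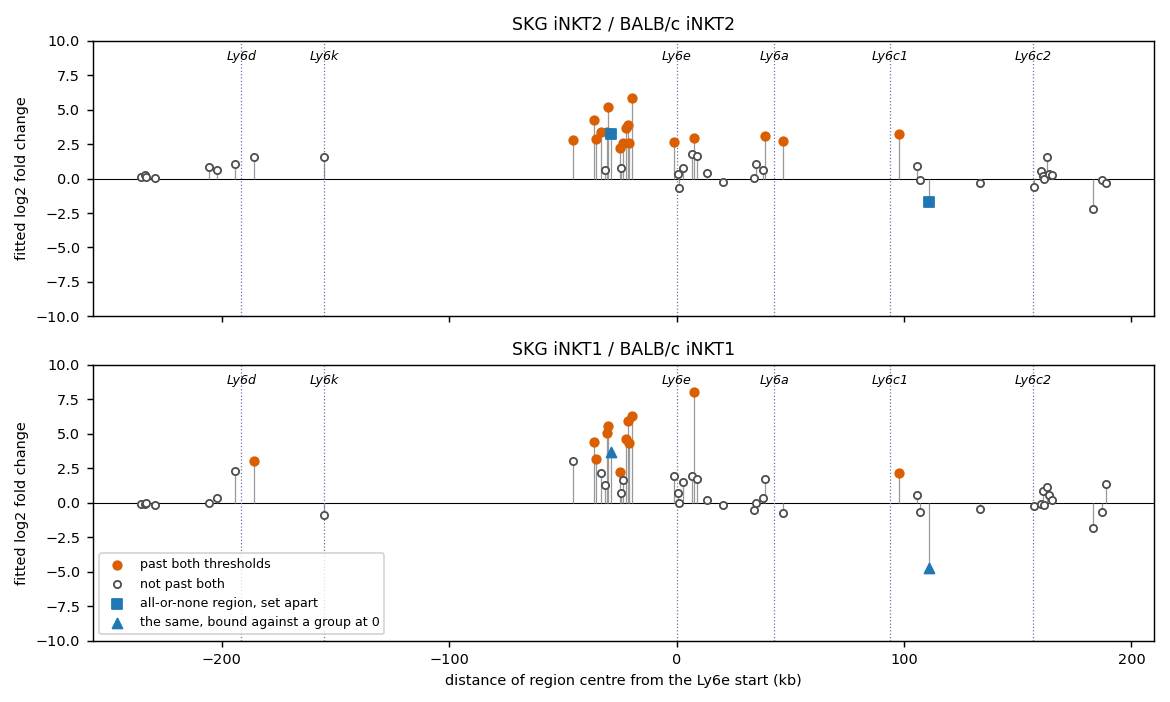
Fitted log2 fold change of SKG over BALB/c for each of the 53 regions, in iNKT2 (top) and iNKT1 (bottom), by distance from the Ly6e start in kb, with dotted lines at the 6 gene starts. Filled circles are regions past both thresholds, open circles the others, squares and triangles the 2 all-or-none regions. A triangle is the ratio of a group mean to the floor of a group at 0. The filled circles gather upstream of Ly6e in both panels.

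Ly6e had the most regions in reach and most of the calls. Upstream of its start, between 74909452 and 74935595, lay 15 regions, of which 13 were called higher in SKG iNKT2, 1 of them all-or-none. This stretch was delimited after its values were seen and is described without a test of its own. It lies in and next to the pseudogene Gm6610 and the long non-coding RNA gene Gm39556. From 74909452 to 74925114 its regions were nearer to the start of 2010109I03Rik (Ly6m), another Ly6 family gene, than to that of Ly6e. At the first of them the distances were 12431 and 45294 bp. Which gene the stretch acts on, if any, was not tested. The summed level of the 15 regions was 14.6 and 14.2 CPM in BALB/c iNKT1 and 82.2 and 80.2 CPM in SKG iNKT1. In iNKT2 cells it was 12.4, 12.6 and 12.9 CPM in BALB/c and 105, 59.9 and 91.0 CPM in SKG. All 15 regions, the values by which it was delimited, were above the BALB/c range in every SKG library of both subsets, with a median log2 change of 3.25 in iNKT2 and 4.37 in iNKT1.

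The region 19.5 kb upstream of Ly6e (74935176–74935595), whose centre is the third sequence printed, held 0.157, 0.106 and 0.0412 CPM in BALB/c iNKT2 and 8.08, 4.27 and 7.15 CPM in SKG iNKT2. It was higher by 5.88 ± 0.39 on the log2 scale (SE), with an edgeR adjusted p of 1.5e-07. The BALB/c side rests on 5, 4 and 1 insertions. In iNKT1 cells it held 0.0896 and 0.264 CPM in BALB/c and 12.5 and 13.6 CPM in SKG, the highest SKG iNKT1 mean of the stretch. Between SKG iNKT2 and SKG iNKT1 it differed by -1.0 ± 0.27 (edgeR adjusted p 0.0059), under the 4-fold threshold.

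The region 36.2 kb upstream (74918427–74918859) had the highest SKG iNKT2 level of the stretch, 22.7, 13.3 and 24.5 CPM, against 1.13, 1.03 and 1.07 CPM in BALB/c iNKT2. Its change was 4.22 ± 0.25 on the log2 scale (edgeR adjusted p 9.2e-08). In iNKT1 it held 0.448 and 0.353 CPM in BALB/c and 7.84 and 10.0 CPM in SKG. It thus was higher in SKG within each subset, and SKG iNKT2 lay above SKG iNKT1 by 1.18 ± 0.24 (edgeR adjusted p 0.0009), below the fold threshold.

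An adjoining pair in an intron of Gm39556 differed between the subsets as well as between the genotypes. The first (74933557–74934029) held 0.149 and 0.0882 CPM in BALB/c iNKT1, and 0.816, 0.846 and 0.536 CPM in BALB/c iNKT2. It rose by 2.54 ± 0.47 in BALB/c iNKT2 over BALB/c iNKT1 (edgeR adjusted p 0.00026), a call lost under quantile normalization with voom (0.59, adjusted p 0.49 by limma). In SKG it held 8.22 and 7.19 CPM in iNKT1, and 12.5, 8.17 and 12.3 CPM in iNKT2, where the subsets overlapped (0.51 ± 0.24, edgeR adjusted p 0.083). SKG iNKT2 was above BALB/c iNKT2 by 3.87 ± 0.25 (edgeR adjusted p 1.2e-07). The second (74934115–74934455) rose by 2.89 ± 0.35 in BALB/c iNKT2 over iNKT1 (edgeR adjusted p 4.7e-06) and by 2.59 ± 0.21 in SKG over BALB/c iNKT2 (edgeR adjusted p 9.1e-07). The first change was 1.95 with quantile normalization and voom, short of the fold threshold. Its levels were 0.329 and 0.132 CPM in BALB/c iNKT1, 5.46 and 4.88 in SKG iNKT1, 2.01, 1.93 and 1.61 in BALB/c iNKT2 and 11.6, 9.6 and 12.6 in SKG iNKT2, so that the 4 groups did not overlap. These comparisons share libraries: BALB/c iNKT2 enters both the subset and the genotype comparison.

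One region of the stretch (74921760–74922059) was the only member called higher in SKG iNKT2 over SKG iNKT1, by 3.18 ± 0.85 (edgeR adjusted p 0.0056). It held 0.0642 and 0.128 CPM in SKG iNKT1, from 3 insertions in all, and 1.10, 0.505 and 1.15 CPM in SKG iNKT2, a pooled ratio of 9.61 with an exact 95% counting interval of 3.15 to 47.8. The call was lost in 7 of the alternatives run, among them the replicate block (3.06, adjusted p 0.014).

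The region that holds the Ly6e start (74954815–74956042, over the UTR) was open in all libraries. It held 20.9 and 20.6 CPM in BALB/c iNKT1, 37.5 and 30.9 CPM in SKG iNKT1, 25.4, 27.4 and 28.3 CPM in BALB/c iNKT2 and 37.2, 34.5 and 31.8 CPM in SKG iNKT2. The start was not called in any comparison, and SKG iNKT2 differed from BALB/c iNKT2 by 0.35 ± 0.12 (edgeR adjusted p 0.042) while no library of the 2 groups overlapped. BALB/c iNKT2 differed from BALB/c iNKT1 by 0.38 ± 0.14 (edgeR adjusted p 0.025), and SKG iNKT2 from SKG iNKT1 by 0.02 ± 0.14 (edgeR adjusted p 0.93). In order of level the groups were BALB/c iNKT1, BALB/c iNKT2, SKG iNKT1 and SKG iNKT2, and the last 2 overlapped.

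Downstream of the gene, 7.5 kb from the start, the region 74962580–74963102 held 0 and 0.0882 CPM in BALB/c iNKT1, from 2 insertions in all, and 11.4 and 10.3 CPM in SKG iNKT1. In iNKT2 cells it held 1.16, 2.49 and 2.89 CPM in BALB/c and 23.7, 9.97 and 16.5 CPM in SKG. BALB/c iNKT2 was above BALB/c iNKT1, with a pooled ratio of 60.1 and an exact 95% counting interval of 16.4 to 500 (fitted log2 5.73, edgeR adjusted p 2.2e-05). This call was lost under quantile normalization with voom (4.16, adjusted p 0.024 by limma). SKG iNKT2 was above BALB/c iNKT2 by 2.95 ± 0.34 (edgeR adjusted p 1.7e-05).

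**Figure D3:**
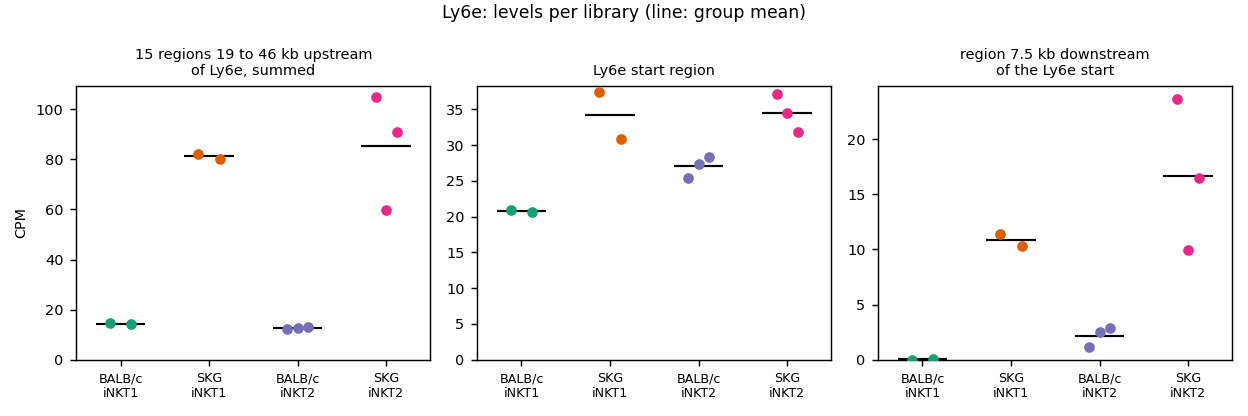
CPM per library in the 4 groups for the summed 15 regions upstream of Ly6e, for the region at its start and for the region 7.5 kb downstream, with black lines at group means. SKG libraries lie at 59.9 to 105 CPM in the first panel and BALB/c libraries at 12.4 to 14.6, while the start region spans only 20.6 to 37.5 CPM.

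No region held the start of Ly6a, the gene of Sca-1. The nearest, 3.6 kb upstream (75001601–75001945), held 1.16 and 1.28 CPM in BALB/c iNKT1, 0.771 and 0.706 CPM in SKG iNKT1, 0.251, 0.238 and 0.330 CPM in BALB/c iNKT2 and 2.26, 1.47 and 1.75 CPM in SKG iNKT2. In BALB/c it was called lower in iNKT2 cells (-2.16 ± 0.40, edgeR adjusted p 0.00023) and in iNKT2 cells it was called higher in SKG (2.76 ± 0.36, edgeR adjusted p 6.1e-05). With library totals in place of TMM factors, the first change was -1.88 and no longer passed the fold threshold. Between SKG iNKT2 and SKG iNKT1 the change was 1.32 ± 0.40 (edgeR adjusted p 0.013) and was not called.

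A region 4.1 kb beyond the Ly6a start in the direction of the gene (74993673–74993972) held 0.157, 0.265 and 0.330 CPM in BALB/c iNKT2 and 2.70, 1.93 and 1.82 CPM in SKG iNKT2 (3.12 ± 0.43, edgeR adjusted p 9.7e-05). The highest member by CPM within reach of both Ly6a and Ly6e (74988179–74989747, 1569 bp wide) lies over exons of the non-coding genes Gm8000 and Gm37042. The start of Ly6i, a family gene outside the 6, was nearer to it (4749 bp) than that of Ly6a (8284 bp). This region held 53.5 and 48.0 CPM in BALB/c iNKT1 and 33.9 and 36.2 in SKG iNKT1. In iNKT2 cells it held 27, 26.1 and 25.6 CPM in BALB/c and 28.9, 26.4 and 27.2 in SKG. The BALB/c subsets differed by -0.95 ± 0.12, lower in iNKT2 (edgeR adjusted p 7.5e-06) and less than 4-fold, and the iNKT2 genotypes overlapped (0.07 ± 0.11, edgeR adjusted p 0.70).

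Ly6c1 had 6 regions in reach and none in its gene body or at its start. Between the last region near Ly6a and the first near Ly6c1, no region was listed over 50478 bp, a span that holds the whole Ly6c1 gene. The nearest region, 3.6 kb upstream of the start (75052424–75052823), was higher in SKG in both subsets and higher in iNKT1 than in iNKT2 in both genotypes. It held 4.24 and 3.61 CPM in BALB/c iNKT1, 19.1 and 15.6 CPM in SKG iNKT1, 0.910, 0.688 and 0.536 CPM in BALB/c iNKT2 and 9.18, 4.13 and 6.41 CPM in SKG iNKT2. SKG iNKT2 was above BALB/c iNKT2 by 3.2 ± 0.30 (edgeR adjusted p 2.8e-06), and BALB/c iNKT2 was below BALB/c iNKT1 (-2.45 ± 0.32, edgeR adjusted p 1.1e-05). The subset change in SKG, -1.38 ± 0.27 (edgeR adjusted p 0.00049), was under the fold threshold, and whether it differed from that in BALB/c was not tested.

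This region and the region upstream of Ly6a were near copies of each other. Over 337 aligned columns, 97.6% of bases were identical, and the sites lie at almost the same distance from the 2 gene starts. The aligned parts are printed on the plus strand of GRCm38.p6, cut at 300 columns, with capitals at bases that differ (7 mismatches and 1 gap).

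Upstream of Ly6a, chr15:75001603-75001901: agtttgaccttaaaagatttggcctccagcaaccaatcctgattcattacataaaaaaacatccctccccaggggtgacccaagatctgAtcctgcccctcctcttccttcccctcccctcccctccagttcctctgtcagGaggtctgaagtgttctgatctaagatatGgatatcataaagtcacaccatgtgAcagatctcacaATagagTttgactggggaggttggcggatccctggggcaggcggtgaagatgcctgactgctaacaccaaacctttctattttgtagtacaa

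Upstream of Ly6c1, chr15:75052487-75052786: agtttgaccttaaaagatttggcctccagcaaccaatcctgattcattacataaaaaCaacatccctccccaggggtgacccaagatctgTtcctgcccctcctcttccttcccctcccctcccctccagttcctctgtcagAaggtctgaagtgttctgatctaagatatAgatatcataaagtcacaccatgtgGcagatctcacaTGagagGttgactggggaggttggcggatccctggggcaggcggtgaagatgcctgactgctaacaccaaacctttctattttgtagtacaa

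Of the 50-base words of these 2 regions, 69.6% and 76.4% occur once in the genome, so that a read from the rest could come from another place, and the study kept only reads with 1 alignment.

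Ly6c2 showed the clearest difference between the subsets, in the same direction in both genotypes. At the region that holds its start (75111808–75112182, over the UTR), iNKT1 libraries held 2.93 and 2.69 CPM in BALB/c and 2.25 and 2.63 in SKG. The iNKT2 libraries held 0.502, 0.265 and 0 CPM in BALB/c and 0.178, 0.0918 and 0.270 in SKG. The start was lower in iNKT2 by -3.35 ± 0.54 on the log2 scale in BALB/c (edgeR adjusted p 7.3e-05) and by -3.79 ± 0.64 in SKG (edgeR adjusted p 0.00015). The iNKT2 genotypes overlapped at the start (-0.64 ± 0.72, edgeR adjusted p 0.55), with 0 to 16 insertions per library. The start of the myeloid marker Itgam moved in the same direction as Ly6c2 between the subsets, with means of 4.33 CPM per kb in BALB/c iNKT1, 8.99 in SKG iNKT1, 1.58 in BALB/c iNKT2 and 1.07 in SKG iNKT2, and was called lower in the SKG comparison alone, while no region held the start of the other 3 myeloid markers. The part of myeloid cells in the Ly6c2 values was not tested.

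Upstream of the start the same order was seen at more regions, of which the 4 nearest are described here. Those at 6.8, 8.1 and 25.8 kb also had every iNKT2 library below every iNKT1 library of the same genotype, and none was called. At 3.0 kb (75115007–75115340) the levels were 5.70 and 5.20 CPM in BALB/c iNKT1 and 5.46 and 5.0 in SKG iNKT1, against 0.470, 0.238 and 0.206 in BALB/c iNKT2 and 0.594, 0.184 and 0.607 in SKG iNKT2. The log2 change was -4.13 ± 0.37 in BALB/c (edgeR adjusted p 2.3e-07) and -3.48 ± 0.37 in SKG (edgeR adjusted p 1.9e-06), with no overlap between subsets in either genotype. At 3.8 kb (75115810–75116109) the SKG subsets differed by -2.45 ± 0.55 (edgeR adjusted p 0.0016), and the BALB/c subsets by -1.76 ± 0.54 (edgeR adjusted p 0.011), which was not called. The SKG call was lost without SKG iNKT1 replicate 2 (-2.34, adjusted p 0.017).

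The most open region near Ly6c2 lay 4.6 kb upstream (75116560–75116893). It held 41.9 and 37.1 CPM in BALB/c iNKT1 and 33.1 and 37.8 in SKG iNKT1, and in iNKT2 14.6, 11.9 and 12.9 in BALB/c and 14.5, 11.1 and 13.6 in SKG. Its change of -1.59 ± 0.15 in BALB/c (edgeR adjusted p 5.0e-07) and -1.44 ± 0.16 in SKG (edgeR adjusted p 2.2e-06) passed the p threshold and not the 4-fold threshold, and the genotypes overlapped in both subsets. At 5.6 kb (75117527–75117904), BALB/c held 6.87 and 4.63 CPM in iNKT1 and 1.41, 0.608 and 0.948 in iNKT2 (-2.55 ± 0.33, edgeR adjusted p 7.8e-06). SKG held 12 and 13 CPM in iNKT1 and 3.89, 1.97 and 2.63 in iNKT2 (-2.11 ± 0.30, edgeR adjusted p 3.4e-05), a call that missed the fold threshold without SKG iNKT2 replicate 2 (-1.89) and with library totals or quantile normalization (-1.92 in both). At this region alone of these 5, all SKG iNKT2 libraries were above all BALB/c iNKT2 libraries (1.55 ± 0.32, edgeR adjusted p 0.0022, not called).

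**Figure D4:**
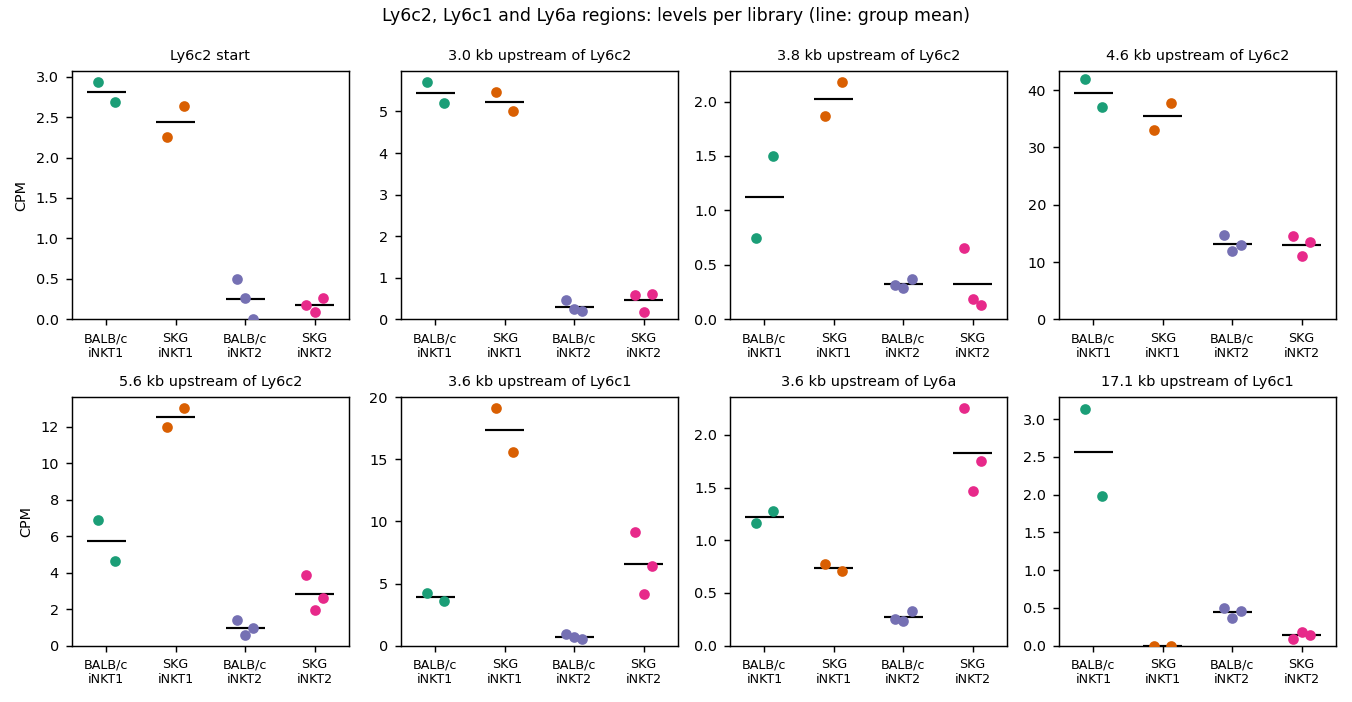
CPM per library in the 4 groups at the Ly6c2 start, at 4 regions upstream of it, at the regions 3.6 kb upstream of Ly6c1 and of Ly6a, and at the all-or-none region 17.1 kb upstream of Ly6c1, with black lines at group means and a separate axis for each panel. The 5 Ly6c2 panels are higher in iNKT1 in both genotypes, and the last panel has both SKG iNKT1 libraries at 0.

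Over all 53 regions, 4 were called higher and 6 lower in BALB/c iNKT2 against BALB/c iNKT1, beside 15.5% and 6.36% of all regions. In SKG iNKT2 against SKG iNKT1, 1 was called higher and 4 lower, beside 10.2% and 6.96% of all regions. One of the 4 and 1 of the 6 are all-or-none regions, without which 3 were called higher and 5 lower in BALB/c. With the replicate number as a block, 3 were called higher in the SKG comparison, and with quantile normalization and voom 0 were called higher in either, with 10 called lower in BALB/c and 4 in SKG. As shares of the 53, 7.55% were called higher and 11.3% lower in BALB/c, and 1.89% and 7.55% in SKG. The median log2 change of the members was 0.22 in BALB/c and -0.01 in SKG, beside 0.06 and 0.14 for all regions. With quantile normalization and voom the BALB/c median of the members turned to -0.86. By position, the 4 called lower in SKG and 3 of the 6 in BALB/c were nearest to Ly6c2, and all 4 called higher in BALB/c were nearest to Ly6e.

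All-or-none regions, in which every library of 1 group held 0 insertions and every library of another held at least 1, are given as values with no test reported for them, although the fit over all regions placed both among the calls counted above. There were 2 among the 53, beside 1.61% of all regions. The region 17.1 kb upstream of Ly6c1 (75065935–75066234) held 105 and 45 insertions in BALB/c iNKT1 (3.14 and 1.98 CPM) and 0 in both SKG iNKT1 libraries. The BALB/c iNKT1 mean was 26.6 times a floor set at 3 insertions in the whole SKG iNKT1 group (0.0963 CPM). In iNKT2 cells it held 16, 14 and 11 insertions in BALB/c (0.502, 0.370 and 0.453 CPM) and 3, 4 and 2 in SKG (0.0891, 0.184 and 0.135 CPM). Both SKG groups thus lay below both BALB/c groups, and SKG iNKT2 was not at 0. A 0 here means that no read aligned to this place alone in the C57BL/6J reference, and the BALB/c and SKG sequence was not read here, so a closed site and sequence that fails to align cannot be told apart.

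The region 28.8 kb upstream of Ly6e (74925922–74926232) went the other way. It held 0 in both BALB/c iNKT1 libraries, 8 and 13 insertions in SKG iNKT1 (0.514 and 0.834 CPM), 27, 5 and 2 in BALB/c iNKT2 (0.847, 0.132 and 0.0825 CPM) and 170, 43 and 48 in SKG iNKT2 (5.05, 1.97 and 3.24 CPM). The mean of SKG iNKT1 was 12.6 times and that of BALB/c iNKT2 6.63 times a floor of 0.0534 CPM for BALB/c iNKT1. These ratios of means leave out the spread between the libraries of the higher group, so they are not lower bounds. In BALB/c iNKT2, replicate 1 held most of the insertions.

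A second region with lower levels in SKG resembled the first all-or-none region in sequence. It lies 25.8 kb upstream of Ly6c2 (75137811–75138116), was 90.8% identical to it over 185 aligned columns on the opposite strand, and held 1.67 and 2.47 CPM in BALB/c iNKT1 and 0.578 and 0.577 in SKG iNKT1. In iNKT2 it held 0.816, 0.291 and 0.577 CPM in BALB/c and 0.0594, 0.276 and 0 in SKG (-2.22 ± 0.69, edgeR adjusted p 0.028, not called). The region 3.0 kb upstream of Ly6c2 was 81.9% identical to the all-or-none region over 216 columns, and there the genotypes overlapped in both subsets. The wide region 74988179–74989747 was 81.6% identical to the all-or-none region over 223 columns. There SKG lay below BALB/c without overlap in iNKT1, and the genotypes overlapped in iNKT2.

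Ly6d and Ly6k had 9 regions in their reach, of which edgeR and DESeq2 called 0 in the 3 tested comparisons. At an unadjusted edgeR p under 0.05, 5 of them were higher in SKG than in BALB/c iNKT2, and the voom fit called 2. The share of all regions was counted neither at this cut nor at the adjusted p alone. At an adjusted p under 0.01 alone, 3 of the 9 were higher in SKG than in BALB/c iNKT2, of which 2 lie at Lynx1. The third, 5.5 kb upstream of Ly6d (74769134–74769468), was higher in SKG than in BALB/c iNKT2, with 4.96, 3.17 and 2.76 CPM against 1.25, 1.22 and 1.36 (1.53 ± 0.26, edgeR adjusted p 0.0006). The nearest region to the Ly6d start, 2.6 kb beyond it in the direction of the gene (74760749–74761064), held 0.209 to 2.09 CPM over the 10 libraries. The Ly6k start region (74799850–74800149, over the UTR) held 0.0412 to 3.39 CPM, with overlap of the genotypes in both subsets and a single library, SKG iNKT2 replicate 1, above 1.06. The highest region in reach of Ly6d (74720951–74721302) lies in a coding exon of Them6, 42.3 kb from the Ly6d start, at 31.7 to 46.7 CPM.

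The rule's 50 kb limit cut off regions that were higher in SKG. The farthest member upstream of Ly6e, at 45.3 kb (74909452–74909757), held 0 and 0.264 CPM in BALB/c iNKT1, 0.707 and 1.15 in SKG iNKT1, 0.0627, 0.132 and 0.412 in BALB/c iNKT2 and 1.69, 0.964 and 1.35 in SKG iNKT2. The first region outside on that side (74896347–74896682) lay 58.4 kb from the Ly6e start. It was in an intron of 2010109I03Rik (Ly6m), 339 bp from the start of that gene. This region held 0.299 and 0.485 CPM in BALB/c iNKT1, 1.99 and 2.18 in SKG iNKT1, 0.721 to 1.2 in BALB/c iNKT2 and 2.39 to 3.77 in SKG iNKT2. Beyond Ly6c2, the first region outside, at 63.6 kb (75175556–75175855), held 0 insertions in all 5 BALB/c libraries, 19 and 22 in SKG iNKT1 and 34, 14 and 10 in SKG iNKT2. No member was at 0 in all 5 BALB/c libraries. The member nearest to it (75143792–75144091) overlapped between the iNKT2 genotypes (-0.36 ± 0.44, edgeR adjusted p 0.59) and was higher in both SKG iNKT1 libraries. Neither outside region is counted among the 53.

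Because reads were kept only where they aligned to 1 place, the uniqueness of the sequence was computed for each region. All 50-base words were unique in 32 of the 53 members (60.4%), compared with 89.0% of every 50th region of the table (n = 1897), and fewer than 80% were unique in 11 members (20.8%), compared with 1.27%. By place, 11 of the 15 regions upstream of Ly6e were fully unique, against 4 of the 15 from Ly6c1 to Ly6c2. Of the 18 regions called higher in SKG iNKT2, 10 were fully unique, and in 5 (27.8%) fewer than 80% of words were unique. Among these 5 were 74933557–74934029 (58.5%), 74934115–74934455 (70.5%) and 74993673–74993972 (61.4%). Within 250 bases of the start, 28.5% of words were unique at Ly6a and 11.1% at Ly6c1, where no region was listed, and 73.7% at Ly6c2. Across the span without regions between Ly6a and Ly6c1, 54.0% of words were unique. Reads were paired and some were trimmed, so these shares describe the sequence and not the fraction of reads that aligned. The reference is C57BL/6J and the mice were BALB/c and SKG.

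**Figure D5:**
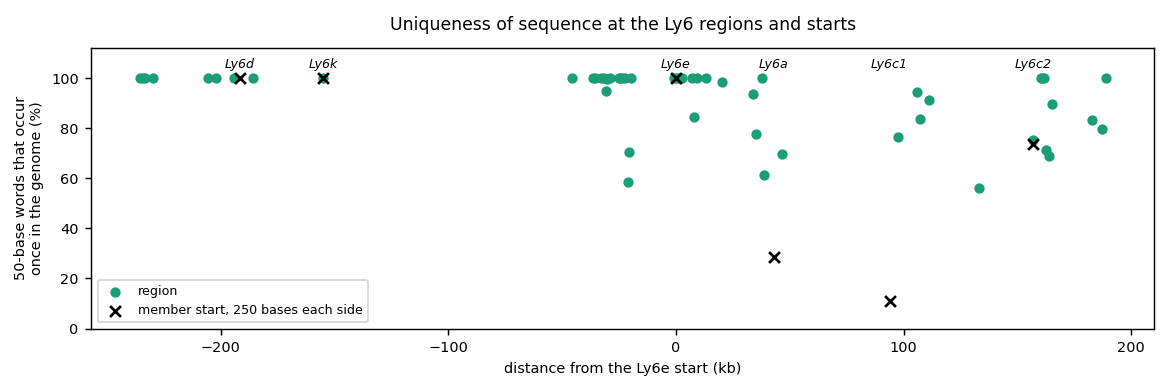
Percentage of 50-base words that occur once in the GRCm38.p6 chromosomes, for the 53 regions (circles) and for 250 bases each side of the 6 gene starts (crosses), by distance from the Ly6e start in kb. The crosses at Ly6a and Ly6c1 lie at 28.5% and 11.1%, while those at Ly6d, Ly6k and Ly6e lie at 100%.

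In all, 16 of the 53 regions resembled at least 1 other member over 100 or more aligned columns at 80% identity or more, in 20 pairs. None of the 16 lay upstream of Ly6e and 12 lay from Ly6c1 onward. The regions with the larger genotype changes upstream of Ly6e were thus not copies of one another by this measure. Only the 53 regions were compared with each other, so copies elsewhere in the genome were not looked for. In 74933557–74934029 and 74934115–74934455, both upstream of Ly6e, 58.5% and 70.5% of words were unique, so some of their sequence was repeated. Whether repeated sequence had a part in the genotype changes was not tested.

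Motif strings were counted on both strands of the central 300 bases, and a match is a string and not a site. The NFAT string GGAAAA was in 9 of 53 members (17%) and in 21.9% of all regions, the Runx string TGTGGTT in 7 (13.2%) and 13.2%, and the STAT string TTCNNNGAA in 5 (9.43%) and 8.75%. The ISRE string was in 5 members (9.43%) and in 5.48% of all regions. No member held the T-box string AGGTGTGA or the Egr strings GCGTGGGCG and GCGGGGGCG, which were in 1.91% and 1.5% of all regions. Of the 18 regions called higher in SKG iNKT2, 3 held the NFAT string, 3 the ISRE string, 2 the Runx string and 1 the STAT string. Matches of the NFAT and ISRE strings can overlap, and the STAT string reads the same on both strands.

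Other genes of the Ly6 family were counted from a list of 31, of which 30 were in the annotation and 7 had a region at their start. On chromosome 15 this was Lynx1 alone, of 16 listed, which encodes a modulator of nicotinic acetylcholine receptors. Its start (74752640–74753227, also a member by its distance from Ly6d) held 9.16, 10.7 and 12.4 CPM in BALB/c iNKT2 and 15.7, 15.4 and 19 in SKG iNKT2 (0.64 ± 0.16, edgeR adjusted p 0.0094, not called). Of the 7, 2 were called higher in BALB/c iNKT2 over iNKT1, beside 15.5% of all regions. They were Cd59a (3.77 ± 0.56, edgeR adjusted p 3.5e-05), which encodes a complement inhibitor, and Lypd6b (2.48 ± 0.26). In SKG iNKT2 over iNKT1 and in SKG over BALB/c iNKT2, edgeR, DESeq2 and voom called 0 of the 7, and at an adjusted edgeR p under 0.01 alone 3 and 2 passed. The share of all regions at that looser cut was not counted, so nothing is read from these 2 numbers.

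By Pearson correlation of log2 CPM over the 10 libraries, among 9776 start regions, the starts most like that of Ly6e were those of Tlr4 (r = 0.938), Tmtc2 (0.929) and Ctdspl (0.915). For Ly6c2 they were Neurl3 (0.960), Cd93 (0.957) and Klhl6 (0.957). The libraries share 4 groups, so these values mostly follow the group means. The other 4 genes had no start region that reached 1 CPM.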

How the data were processed

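ATAC-seq was performed on sorted thymic iNKT cells. The authors trimmed reads that had not aligned with Trim Galore, aligned reads with Bowtie 1.0 to mm10 keeping single alignments, removed mitochondrial and duplicate reads with Picard, called summits with MACS2 on subnucleosomal fragments, merged them into regions over all samples and counted insertions per region and library. The deposited table is named as normalized, but its values are whole numbers with unequal totals and were taken as the raw count. Totals set the precision: a floor of 3 insertions over a group covers counting error only.

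Groups were taken from the sample labels. Fits over all 94823 regions used edgeR 4.0.16 (R 4.3.3, TMM, 1 model for the 4 groups), with DESeq2 1.42.0, limma 3.58.1 (voom, quantile), library totals, dropping regions under a mean of 36.2 insertions, a fit of the compared groups, a replicate block, a 2-fold null, other thresholds and windows, and leaving out each library as alternatives. On data simulated for SKG against BALB/c iNKT2 over 94823 regions, the thresholds recovered 39 of 100 changes of 4-fold and 91 of 100 of 8-fold, with 2 false calls. A change set at exactly 4-fold can miss the 4-fold threshold at any depth, because its fitted value falls on either side. The changed regions were drawn from all levels, so recovery at members with few insertions was not measured. Among same-numbered SKG and BALB/c iNKT2 libraries, the replicate 1 pair deviated together (r = 0.455). The other same-numbered pairs (0.142 and 0.166) lay within the range of differently numbered ones, -0.343 to 0.224. Whether the numbers pair is thus not settled, and the block was run as a paired alternative, while printed values are without it. In iNKT1 cells r was -0.00218, and with 2 libraries per group all pairs give this 1 value apart from its sign. Coordinates are mm10, genes GENCODE M21. Named regions were those at or nearest each gene start, the 4 called ones of smallest adjusted p per direction and tested comparison, the highest within reach of each gene and the all-or-none ones, 21 in all. Other regions given for position or sequence likeness were chosen after their values were seen. The members and lists were chosen with earlier results of these data known.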

Additional observations from a re-analysis of the deposited data

Results flagged for a closer look

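Among the 53 regions, 3 moved in opposite directions in different groups, with every library of the higher group above every library of the lower group on each side. The difference between the effects was not tested for any of them. At 75001601–75001945, upstream of Ly6a, mean CPM was lower in SKG than in BALB/c among iNKT1 cells (difference -0.483) and higher among iNKT2 cells (difference 1.55), and the gap between these differences was 2.04 CPM. The same values read by subset were lower in iNKT2 in BALB/c (-0.949) and higher in iNKT2 in SKG (1.09), again 2.04 CPM apart. These levels rest on 8 to 76 insertions per library.

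At 75065935–75066234, the all-or-none region upstream of Ly6c1, mean CPM was lower in iNKT2 than in iNKT1 in BALB/c (difference -2.12) and higher in SKG (difference 0.136), 2.25 CPM apart. The SKG side compares 0 insertions in both iNKT1 libraries with 3, 4 and 2 in the iNKT2 libraries.

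At 75142034–75142337, 30.1 kb upstream of Ly6c2, mean CPM was lower in iNKT2 than in iNKT1 in BALB/c (difference -0.162) and higher in SKG (difference 0.16), 0.321 CPM apart, from 8 to 33 insertions per library. Neither change was called (edgeR adjusted p 0.57 and 0.56), and the region was singled out after its values were seen.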

How the results depend on the processing

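No called value changed sign in the alternatives run. Of 1300 values at single regions under the alternatives, 1216 kept their sign and side of the thresholds, 27 with no call on either side changed sign (8 of them with quantile normalization and voom, as at 74760749–74761064 in BALB/c from 1.51 to -0.24), 26 moved, 16 gained and 15 lost a call. Regions called higher in BALB/c iNKT2 over iNKT1 (4) came to 0 with quantile normalization and voom, 9 at an adjusted p under 0.05 and 2-fold, and 1 in a 20 kb window (3 to 4 on leaving out 1 library); those called lower (6) to 10, 13 and, after dropping regions under a mean of 36.2 insertions, 3 (5 to 7). In SKG, the 1 called higher became 2 with library totals or a fit of the compared groups, 3 with the replicate block, 12 at the looser thresholds, and 0 with voom, the filter, a test against a 2-fold change or 20 kb (0 without SKG iNKT1 replicate 1 or SKG iNKT2 replicate 1, 3 without SKG iNKT2 replicate 2). The 4 called lower there became 2 with the filter and 12 at looser thresholds (3 to 4). The 18 called higher in SKG over BALB/c iNKT2 became 9 with the filter, which kept 32 of the 53 regions and 9 of the 18, and 6 within 20 kb (16 to 18). The 0 called lower became 2 at looser thresholds and 1 without SKG iNKT2 replicate 2 (0 to 1). In iNKT1 the 12 past the thresholds upward became 6 with voom, 19 at looser thresholds, 4 within 20 kb and 6 without BALB/c iNKT1 replicate 1 (6 to 13), and the 1 downward became 0 with the filter. All-or-none regions (2) numbered 5 with up to 0.1 CPM in the low group, 1 within 20 kb and 4 without either BALB/c iNKT1 library (2 to 4). The causes were not tested. Another scaling moved the median of all regions from 0.06 to 0.34 with library totals in BALB/c, from 0.14 to 0.32 in SKG and from 0.01 to -0.12 between the iNKT2 genotypes, where the members' median was 0.69 to 1.31. The replicate block moved no other count by over 1.5 times. The 18 regions called higher held 6 to 201 insertions over the BALB/c iNKT2 libraries, with a median of 30.5, which limits the precision of their fold changes.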
